A study of Mus musculus with 4 samples.

Results

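Nuclei of Agrp neurons were picked from single-nucleus RNA counts of the arcuate nucleus (ARC) by their own transcripts. A nucleus was taken as a member if it held at least 5 unique molecular identifiers (UMIs, each 1 captured transcript) of Agrp, if these made up at least 0.05% of its UMIs, and if it held at least 1 UMI of Npy. This gave 639 of 39176 kept nuclei (1.63%), made up of 33 from Sham 1, 156 from Sham 2, 449 from DOCA-salt 1 and 1 from DOCA-salt 2, so that 70.3% came from a single library. The mice were wildtype C57BL/6J males, 10 weeks old, and had lived for 3 weeks either after sham surgery or with a subcutaneous deoxycorticosterone acetate pellet and a salt drink offered beside water (DOCA-salt). Each of the 4 libraries pooled nuclei from ARC punches of 2 mice, and there were 2 libraries per treatment. The nuclei of both mice were isolated apart and then pooled, and the counts were not assigned to mice here, so the library was the unit in every comparison.

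Agrp neurons release agouti-related peptide, which blocks melanocortin receptors, together with neuropeptide Y and GABA, and their activity drives feeding. They sit beside Pomc neurons in the ARC, sense leptin, ghrelin and insulin, and lower energy expenditure when active. The angiotensin receptor in these neurons is the reason the study looked at them under DOCA-salt, a model of hypertension with low circulating renin. Agrp (chr8:105566698-105637393, minus strand, GRCm38) and Npy (chr6:49822710-49829507, plus strand) chose the nuclei, so their levels are a description. Otp (chr13:94875602-94885130, plus strand), a homeodomain factor of hypothalamic peptide neurons, Acvr1c (chr2:58267453-58357895, minus strand), an activin-type receptor, and Corin (chr5:72300025-72504473, minus strand), a membrane protease that processes natriuretic peptides, are the markers that the choice did not use.

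Promoter windows are shown for Npy, which helped to choose the nuclei, and for the 3 markers used to check them. Each holds the 250 bases before a start site of RefSeq (GRCm38.p6), read 5′ to 3′ on the strand of its gene. The RefSeq starts of Otp and Acvr1c lie inside the gene ranges given above, so these windows reach into those ranges. Capitals mark the letters GGGCGG (GC box) and CCAAT, searched on both strands, so that CCGCCC and ATTGG are the same motifs read from the other strand.
Npy: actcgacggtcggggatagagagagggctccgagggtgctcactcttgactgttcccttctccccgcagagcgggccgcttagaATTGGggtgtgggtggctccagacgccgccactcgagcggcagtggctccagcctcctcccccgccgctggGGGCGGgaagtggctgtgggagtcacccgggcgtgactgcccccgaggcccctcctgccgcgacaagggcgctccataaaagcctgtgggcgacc
Otp: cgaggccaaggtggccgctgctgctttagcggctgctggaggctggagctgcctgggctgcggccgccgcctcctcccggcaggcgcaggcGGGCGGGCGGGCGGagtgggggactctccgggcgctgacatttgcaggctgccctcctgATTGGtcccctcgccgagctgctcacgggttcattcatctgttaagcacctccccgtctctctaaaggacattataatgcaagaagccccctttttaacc
Acvr1c: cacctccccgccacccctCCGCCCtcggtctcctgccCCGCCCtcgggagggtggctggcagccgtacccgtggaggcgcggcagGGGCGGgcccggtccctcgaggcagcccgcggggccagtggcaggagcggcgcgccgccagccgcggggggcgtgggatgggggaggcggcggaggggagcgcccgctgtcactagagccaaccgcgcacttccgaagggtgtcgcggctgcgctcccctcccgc
Corin: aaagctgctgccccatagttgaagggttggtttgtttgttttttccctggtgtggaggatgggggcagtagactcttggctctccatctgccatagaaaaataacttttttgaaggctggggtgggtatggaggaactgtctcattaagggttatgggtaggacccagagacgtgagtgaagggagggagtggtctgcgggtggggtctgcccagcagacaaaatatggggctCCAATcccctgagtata
These windows are chr6:49822460-49822709, chr13:94875386-94875635, chr2:58357759-58358008 and chr5:72504541-72504790. A second start of Acvr1c has the window chr2:58324808-58325057, which held none of the motifs searched and is not printed. The 3 GC boxes of Otp overlap each other in a single run of repeats, and Corin held no GC box. None of the 4 held the letters TATAAA, which 12.4% of all 32851 promoter windows hold. GGGCGG stood in 32.7% of them and CCAAT in 33.8%. Among the 18 windows listed for 14 of the 15 genes furthest above other neurons (given below), 11 held GGGCGG, 7 CCAAT and 1 TATAAA. The table used here holds no window for Agrp.

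DOCA-salt 2 and Sham 1 stood apart and are described before any result. DOCA-salt 2 had the most kept nuclei, 18907, yet Agrp was found in 0.518% of them, whereas the shares were 16.3% (DOCA-salt 1), 19.8% (Sham 1) and 14.6% (Sham 2). Its 109 Agrp UMIs compare with 7815, 1108 and 3406 in the others. Its other neurons also held little Pomc, at 38.7 CPM (UMIs per 1000000 UMIs summed), against 336, 174 and 281, and much Pmch, the hormone precursor of lateral hypothalamic neurons, at 2873 CPM, against 31.5, 44.5 and 32.1. Fewer nuclei of a type and less RNA per nucleus cannot be told apart in such whole-library totals. The cause of the difference between DOCA-salt 2 and the other libraries was not tested. DOCA-salt 2 with its single member was left out of all tests on members. Where 3 values follow each other below, they stand for DOCA-salt 1, then Sham 1, then Sham 2, unless said otherwise. In Sham 1, 98.5% of kept nuclei passed the neuron gate (Snap25 plus Syt1, at least 2 UMIs), against 71.9%, 77.5% and 76.7% in the other libraries, so the gate left out few nuclei there.

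Between 1 and 44 cell barcodes were shared by any 2 libraries. The 639 members were set against 29668 other kept neurons, of which 7063, 2138 and 5810 were in the 3 libraries used. Of the members, 119 (103 in DOCA-salt 1 and 16 in Sham 2) did not pass the neuron gate and were kept, since the rule does not ask for it. Members were deeper than other neurons in the 3 libraries, with medians of 4273 against 3257 UMIs in DOCA-salt 1, 9836 against 8266.5 in Sham 1 and 6815 against 4510 in Sham 2. Summed over members, the libraries gave 2733504, 381143 and 1361075 UMIs.

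Agrp transcripts were few per nucleus and spread over a wide range. The median member held 10, 13 and 10 Agrp UMIs in these libraries, with highest values of 54, 58 and 66. Npy medians were 10, 20 and 19 UMIs, with highest values of 58, 78 and 109. Npy exceeded Agrp in 43.2% of members of DOCA-salt 1, 72.7% of those of Sham 1 and 80.1% of those of Sham 2, and the summed ratio of Npy to Agrp was 1.01, 1.72 and 1.85. Members of DOCA-salt 1 held Agrp at 2040 CPM, against 1422 and 1373 in the Sham libraries, and Npy at 2065 against 2443 and 2544 CPM. Agrp and Npy chose the members, and those of DOCA-salt 1 were shallower than those of the Sham libraries. The order of these levels is therefore only a description. The summed ratio of Npy to Agrp in nuclei that should lack both peptides was 0.895, 3.31 and 3.88. These were nuclei with at least 1% of their UMIs from 8 oligodendrocyte genes, called oligodendrocyte-rich below, with members left out of them (217, 123 and 629 nuclei, with medians of 974, 6014 and 1972 UMIs), in which Agrp reached 60.0, 40.8 and 37.3 CPM and gave a UMI in 6.91%, 17.1% and 9.54% of nuclei. In Sham 2, 3 members passed the same limit and were kept as members only. Oligodendrocyte-rich nuclei that passed the neuron gate also counted as other neurons. Agrp in other neurons, from which the rule had taken the members, was at 56.2, 27.2 and 37.3 CPM. These levels were lower than in oligodendrocyte-rich nuclei in DOCA-salt 1 and Sham 1, and about the same in Sham 2. Members held 71.4%, 48.9% and 54.9% of all Agrp UMIs.

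**Figure D1:**
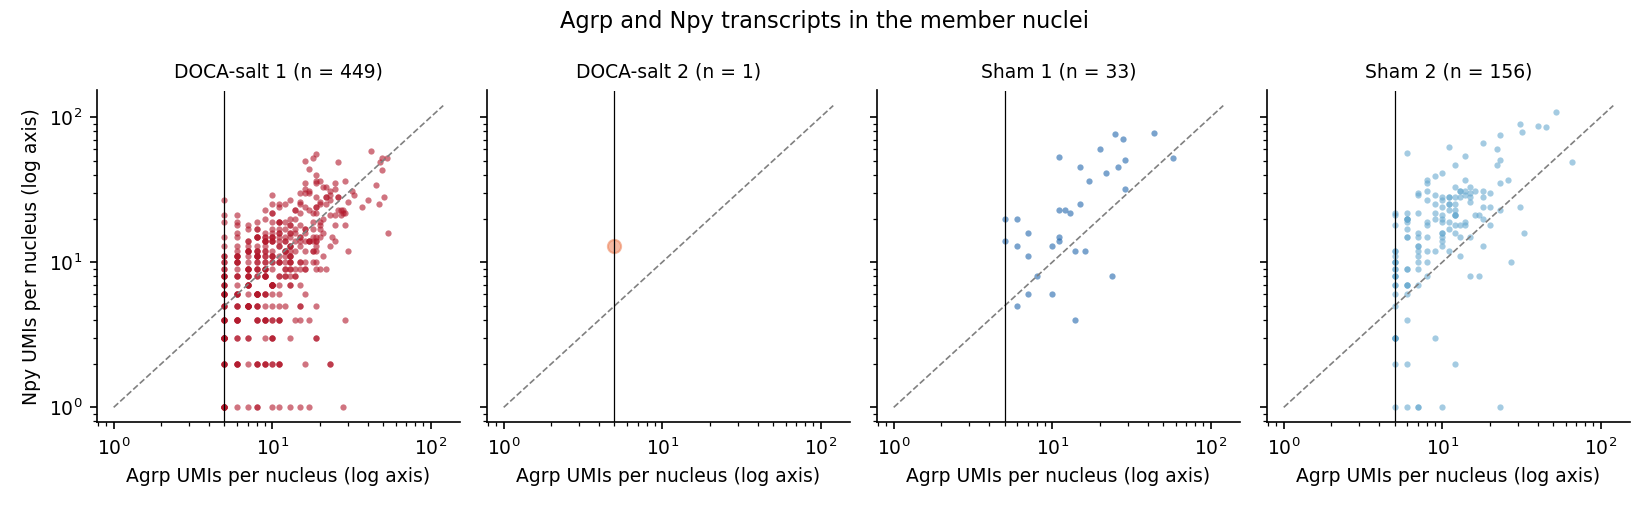
Agrp UMIs (x axis, log) against Npy UMIs (y axis, log) in each member nucleus, 1 panel per library. The solid line marks the limit of 5 Agrp UMIs and the dashed line equal counts. Points of both Sham libraries lie mostly above the dashed line, whereas those of DOCA-salt 1 scatter on both sides, and DOCA-salt 2 has 1 point.

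The limit of 5 UMIs passed through a continuous range. In DOCA-salt 1, 51 members held exactly 5 Agrp UMIs, and 54 nuclei that met the other limits were just outside with 4. The same counts were 2 and 1 in Sham 1 and 25 and 27 in Sham 2. Median Npy inside and outside was 5 and 5 UMIs in DOCA-salt 1, 17 and 4 in Sham 1 and 8 and 10 in Sham 2. The only member of DOCA-salt 2 held 5 Agrp, 13 Npy and 28 Sst UMIs among 3623, with Otp present, Acvr1c and Corin at 0, and oligodendrocyte genes at 8832 CPM, against 570 in the summed members of DOCA-salt 1.

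Members stood among neurons and members of Sham 1 at 1.52% (exact 95% binomial interval 1.05% to 2.13%, counting error only) and of Sham 2 at 2.61% (2.22% to 3.05%). The share was 5.98% (5.45% to 6.54%) for DOCA-salt 1 and 0.00682% (0.000173% to 0.0380%) for DOCA-salt 2. The 2 DOCA-salt libraries were the highest and the lowest of the 4. The means were 2.99% ± 4.22 (SD, n = 2) in DOCA-salt and 2.07% ± 0.774 (SD, n = 2) in Sham, a difference of 0.925 percentage points with p = 1 in a two-sided exact permutation test, where 2 libraries against 2 cannot give less than 0.333. Without DOCA-salt 1 the difference was -2.06 points, and without DOCA-salt 2 it was 3.91. Thinning every neuron to 2000 UMIs, with a limit of 3 Agrp UMIs, gave 4.91% and 0.00910% for DOCA-salt 1 and 2, and 0.797% and 1.80% for Sham 1 and 2.

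How members differed from other neurons was tested on genes the rule did not use, with UMIs summed per library and the library as a block (edgeR quasi-likelihood test, Benjamini-Hochberg adjusted p under 0.05). Of 15005 genes tested, 1634 (10.9%) differed, 697 (4.65%) higher and 937 (6.24%) lower in members. Without DOCA-salt 1 the count was 732, without Sham 2 it was 1065, and DESeq2 gave 573. Members were higher in Otp, Acvr1c and Corin and in Lepr, Ghsr, Ghr and Npy2r, which are receptors for leptin, ghrelin, growth hormone and neuropeptide Y, and lower in Slc17a6, the vesicular glutamate transporter, and in many glutamate receptor and adhesion genes.

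All 3 markers left for testing were higher. Otp was at 296, 215 and 295 CPM in members, against 54.7, 58.1 and 54.6 CPM in other neurons, a log2 fold change of 2.31 ± 0.08 (SE, adjusted p = 5.07e-28). Acvr1c was at 242, 176 and 194 CPM against 51.1, 23.3 and 33.3 (2.43 ± 0.09, adjusted p = 7.78e-27). Corin was rare elsewhere, at 39.5, 31.5 and 34.5 CPM against 2.60, 0.673 and 1.63 (4.28 ± 0.27, adjusted p = 6.36e-18). Each of the 3 was higher in members of every library used, while 40.6% of all genes tested had 1 sign in every library. Otp gave a UMI in 74.8%, 75.8% and 84.6% of members, 14.8%, 34.2% and 19.5% of other neurons and 2.76%, 23.6% and 11.3% of oligodendrocyte-rich nuclei. After thinning all nuclei to 2000 UMIs the shares were 46.2%, 39.4% and 48.7% of members and 9.30%, 11.1% and 9.77% of other neurons. The markers thus bore out the label of Agrp neurons in these 3 libraries, although Corin was seen in no more than 21.8%, 30.3% and 25.6% of members.

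Genes outside the marker list reached the same range. Serpina3n, a secreted protease inhibitor, was at 292, 210 and 209 CPM in members and at 59.9, 28.0 and 32.2 CPM in other neurons (log2 fold change 2.51 ± 0.09, adjusted p = 5.07e-28). The 15 genes with the largest fold changes among those of 1 sign in every library and at least 20 CPM also held Ghr, Npy2r, Pgr15l, Gpr179, Vwa5a, Rasl11b, Crhr1, Lepr, Krt90, Ghsr and Slc12a7, with log2 fold changes between 1.94 (Lepr) and 2.30 (Slc12a7). Slc12a7 is a potassium-chloride cotransporter, and Crhr1 is the receptor of corticotropin-releasing hormone. The 10 that were lowest were Meis2, Ptk2b, Bdnf, Ano3, Dlx6os1, Car11, Foxp2, Arpp21, Adarb2 and Tac1, from -2.35 (Meis2) to -1.59 (Tac1). Meis2 was at 138 CPM in the other neurons of DOCA-salt 1 but at 5.09 and 5.43 CPM in those of the Sham libraries, and without DOCA-salt 1 its log2 fold change was -1.24 with an adjusted p of 0.498. Foxp2 likewise lost its call without that library (-0.89, adjusted p = 0.0506), and Arpp21 was at -1.05 without it and lost its call with DESeq2 (adjusted p = 0.0977).

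**Figure D2:**
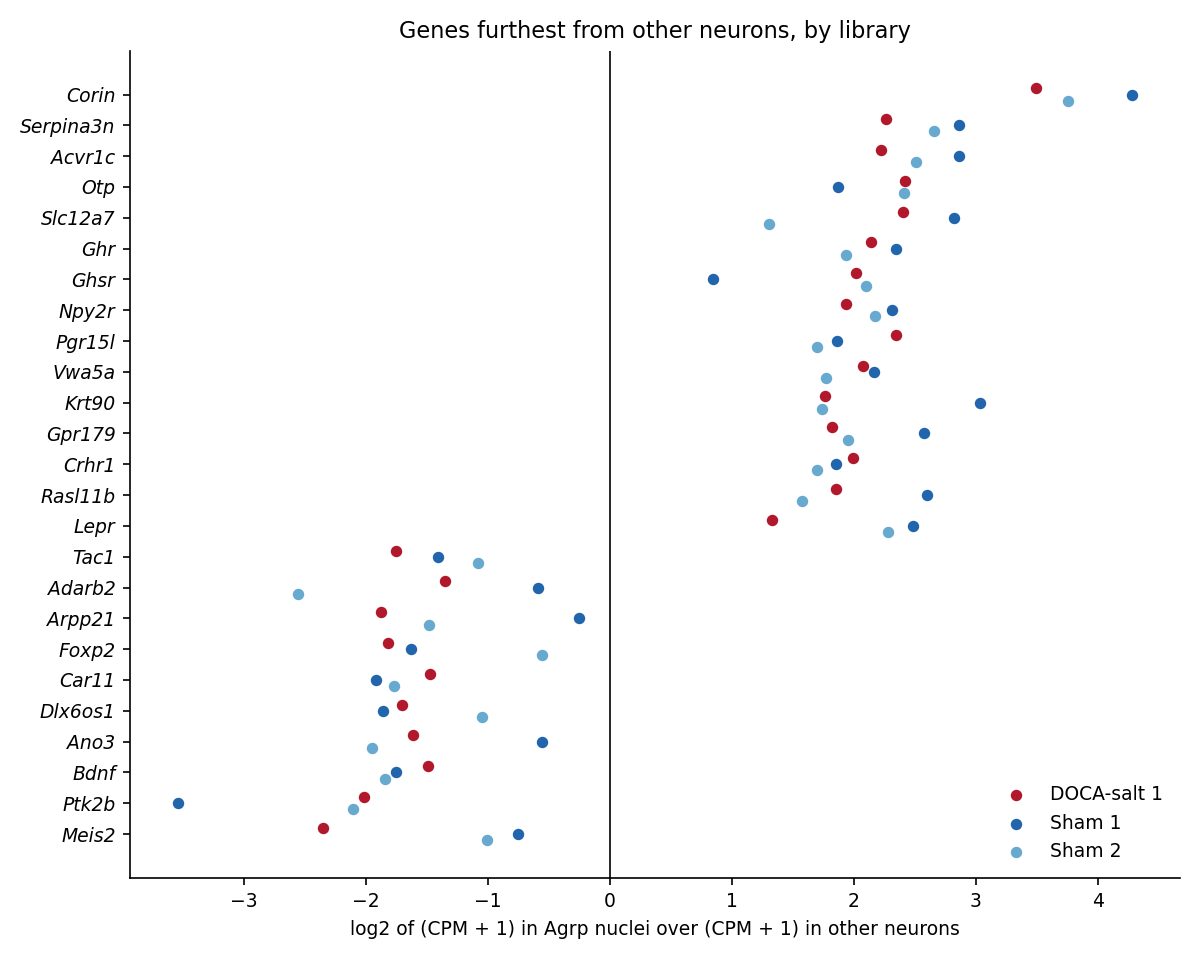
Log2 ratio of (CPM + 1) in members over (CPM + 1) in other neurons (x axis) for the 15 higher and 10 lower genes (y axis), with 1 point per library. Every point lies on the side of its fold change, and Corin lies furthest right in each library.

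Receptors and signal genes through which hormones act on these neurons moved in both directions. Of 15 metabolic receptor and signal genes tested, 5 were higher and 2 lower, and the list median was -0.04, against -0.01 for all genes tested. Of all genes tested 4.65% were higher and 6.24% lower. This is the background for the counts of this and the following lists in members against other neurons. Lepr, the leptin receptor, was at 29.6, 39.4 and 36.0 CPM in members and 11.2, 6.20 and 6.61 CPM in other neurons (1.94 ± 0.21, adjusted p = 6.07e-10). Ghsr, the ghrelin receptor, was at 31.1, 7.87 and 23.5 CPM against 6.92, 3.94 and 4.73 (2.10 ± 0.23, adjusted p = 9.00e-10), and its 7.87 CPM in Sham 1 rests on 3 UMIs. Calcr, the calcitonin and amylin receptor subunit, was at 68.0, 78.7 and 67.6 CPM against 21.2, 24.5 and 27.3 (1.52 ± 0.12). Irs4, an adaptor below the insulin receptor, was at 396, 412 and 434 CPM against 182, 160 and 185 (1.19 ± 0.07), and Socs3, a feedback inhibitor of leptin signalling, reached 2.00 ± 0.26. Insr, the insulin receptor itself, did not pass the test (-0.04 ± 0.10, adjusted p = 0.884). Igf1r and Ramp1 were the 2 genes that were lower. Ghr, the growth hormone receptor, which is not in the list, was at 196, 155 and 152 CPM against 43.6, 29.7 and 38.9 (2.10 ± 0.09, adjusted p = 2.25e-24).

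Lepr gave a UMI in 16.3%, 27.3% and 19.2% of members against 4.01%, 4.82% and 3.51% of other neurons and 0.922%, 1.63% and 1.11% of oligodendrocyte-rich nuclei. After thinning to 2000 UMIs it was seen in 6.30%, 9.09% and 7.24% of members and 2.02%, 1.10% and 1.43% of other neurons.

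Among 10 melanocortin, neuropeptide Y and related receptor genes, 2 were higher and 3 lower (median -0.15). Npy2r, an inhibitory receptor through which neuropeptide Y neurons sense their own peptide, was at 110, 110 and 129 CPM in members against 27.9, 21.4 and 27.8 CPM in other neurons (2.10 ± 0.11, adjusted p = 1.02e-21), while the other neuropeptide Y receptors of the list, Npy1r and Npy5r, did not pass the test. Mc3r, a melanocortin receptor, was at 15.7, 15.7 and 17.6 CPM against 9.23, 6.25 and 8.30 (0.92 ± 0.24, adjusted p = 0.00522), a call that was lost without DOCA-salt 1 (adjusted p = 0.0563), without Sham 2 (0.0986) and with DESeq2 (0.0735). With nuclei thinned to 2000 UMIs Mc3r was at 0.24 (adjusted p = 0.897). Mc4r, Gpr83 and Hcrtr2 were lower. Mc4r held only 1.10, 5.25 and 2.20 CPM in members, and its call was lost without DOCA-salt 1 (adjusted p = 0.612) or without Sham 2 (0.172), and also with DESeq2 (0.41), with thinned nuclei (0.636), at 10 Agrp UMIs (0.26), against GABA neurons (0.0503) and without the highest doublet scores (0.06). Of 17 monoamine, opioid and purine receptor genes (median -0.57), 2 were higher, with Hrh3, an inhibitory histamine receptor, at 0.70 ± 0.09, and 5 were lower, with Htr2c, a serotonin receptor, at 34.0, 34.1 and 19.8 CPM against 84.7, 74.0 and 63.5 (-1.41 ± 0.13).

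Agtr1a (chr13:30336441-30382867, plus strand), the main angiotensin II receptor of mice, was higher in members, at a low level. It had 41 UMIs in members of DOCA-salt 1, 0 in Sham 1 and 8 in Sham 2, which is 15, 0 and 5.88 CPM, against 3.94, 0.913 and 2.03 CPM in other neurons. At the depth of Sham 1 a count of 0 still allows 7.87 CPM in members. Among members, 8.69%, 0% and 4.49% held a UMI, against 1.60%, 0.889% and 1.22% of other neurons and 0.461%, 1.63% and 0.477% of oligodendrocyte-rich nuclei. The log2 fold change was 1.72 ± 0.36 (adjusted p = 4.11e-04), but the call was lost without DOCA-salt 1 (1.31, adjusted p = 0.55), with DESeq2 (1.53, adjusted p = 0.144) and with thinned nuclei (1.76, adjusted p = 0.0601). Of 5 renin-angiotensin genes tested (median -0.05), Agtr1a was the 1 higher, and Agt, the precursor angiotensinogen that astrocytes make, was the 1 lower, at -0.33 ± 0.09. Agt was 0.06 on the log2 scale above other neurons within DOCA-salt 1 but -0.69 and -0.63 in Sham 1 and Sham 2. Without Sham 2 its fold change was -0.17 (adjusted p = 0.462 in edgeR), and without DOCA-salt 1 it was -0.68. The lower call was also lost with DESeq2 (adjusted p = 0.121) and with thinned nuclei (adjusted p = 0.27 in edgeR). Against neurons with few glial transcripts Agt turned to 0.43 and was called higher (adjusted p = 3.47e-04 in edgeR).

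Steroid receptors and their targets were tested as a further list, since DOCA is a mineralocorticoid. Of 11 genes, 2 were higher and 0 lower (median 0.10). Nr3c1, the glucocorticoid receptor, was at 155, 150 and 227 CPM in members against 96.0, 113 and 129 CPM (0.67 ± 0.08, adjusted p = 5.02e-09). Fkbp5, a chaperone that this receptor induces, was at 73.5, 39.4 and 47.8 CPM against 49.1, 31.0 and 28.4 (0.59 ± 0.12), and lost its call without DOCA-salt 1 (adjusted p = 0.0536), with DESeq2 (0.0507) and with thinned nuclei (0.0825). Nr3c2, the mineralocorticoid receptor, was at 17.2, 28.9 and 19.1 CPM in members against 17.8, 21.0 and 15.9 and did not pass the test (0.11 ± 0.19, adjusted p = 0.825). Hsd11b2, the enzyme that shields that receptor from glucocorticoids, had no UMI in any member.

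Transcription factors split into 8 higher and 7 lower of 20 (median -0.19). Besides Otp, the higher genes included Tbx3 (123, 113 and 122 CPM against 58.8, 23.5 and 50.0, 1.28 ± 0.11), a factor that keeps arcuate neuron identity, and Nr5a2 (34.4, 26.2 and 31.6 CPM against 8.75, 4.18 and 10.3, 1.89 ± 0.20). Prox1 (1.20 ± 0.11), Stat3 (1.10 ± 0.08), which acts below the leptin receptor, and Foxo1 (0.82 ± 0.12), which insulin inhibits, were also higher. Isl1 (0.65 ± 0.09) and Bsx (0.58 ± 0.18) completed the group. Without DOCA-salt 1 Bsx was at 1.13 (adjusted p = 0.0042 in edgeR). The call of Bsx was lost without Sham 2 (0.32, adjusted p = 0.593), with DESeq2 (adjusted p = 0.158), with thinned nuclei (0.0643), against other GABA neurons (0.136) and against neurons with few glial transcripts (0.0544). Fezf1, a gene of ventromedial neurons, was among the lower ones (-1.36 ± 0.20), but at -0.74 (adjusted p = 0.052) against other GABA neurons.

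Of 6 genes of GABA and glutamate identity, 0 were higher and 2 lower (median -0.28), among them Slc17a6. Gad1, an enzyme that makes GABA, was at 275, 278 and 281 CPM in members against 257, 222 and 262 CPM in other neurons, and Gad1, Gad2 and Slc32a1, which loads GABA into vesicles, did not pass the test (0.12 ± 0.07, -0.16 ± 0.07 and -0.10 ± 0.08). Against other GABA neurons only, Gad2 (-0.45, adjusted p = 7.87e-05) and Slc32a1 (-0.41, adjusted p = 0.00369) were lower in members. Gad2 was also lower against neurons with few glial transcripts (-0.27, adjusted p = 0.00261) and without Sham 1 (-0.19, adjusted p = 0.046). Slc17a6 was at 96.2, 91.8 and 118 CPM against 204, 247 and 228 (-1.11 ± 0.09, adjusted p = 8.15e-15), and against other GABA neurons the value was -0.71. In oligodendrocyte-rich nuclei Slc17a6 was at 75.8, 189 and 135 CPM, so the level in members was not above this background in the Sham libraries. Against other GABA neurons only, the number of genes that differed was 1336, and 1294 of the 1634 genes kept their call and sign.

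Transmitter receptor and synaptic adhesion genes were called lower more often than higher. Of 17 glutamate receptor subunits, 13 were lower and 0 higher (median -0.42), of 14 GABA-A receptor subunits 8 were lower and 1 higher (-0.40), and of 22 synaptic adhesion genes 13 were lower and 1 higher (-0.49), where 6.24% of all genes tested were lower. Grm5 (-0.92 ± 0.08) and Gria3 (-0.90 ± 0.08) were the glutamate receptor genes with the smallest adjusted p. Lrp1b, a large endocytic receptor, was at 131, 84.0 and 91.1 CPM in members against 234, 237 and 227 CPM (-1.11 ± 0.09, adjusted p = 5.17e-14). In oligodendrocyte-rich nuclei Lrp1b was at 218, 206 and 215 CPM, which is above its level in members in each library. Tenm1 (-0.93 ± 0.08) and Cdh13 (-1.12 ± 0.11), both adhesion proteins, were lower too. Among GABA-A receptor subunits, Gabrb2 was at 12.1, 2.62 and 8.08 CPM against 29.9, 26.1 and 26.5 (-1.55 ± 0.21), and Gabre was the 1 that was higher, at 112, 123 and 152 CPM against 57.4, 27.4 and 65.4 (1.20 ± 0.11).

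**Figure D3:**
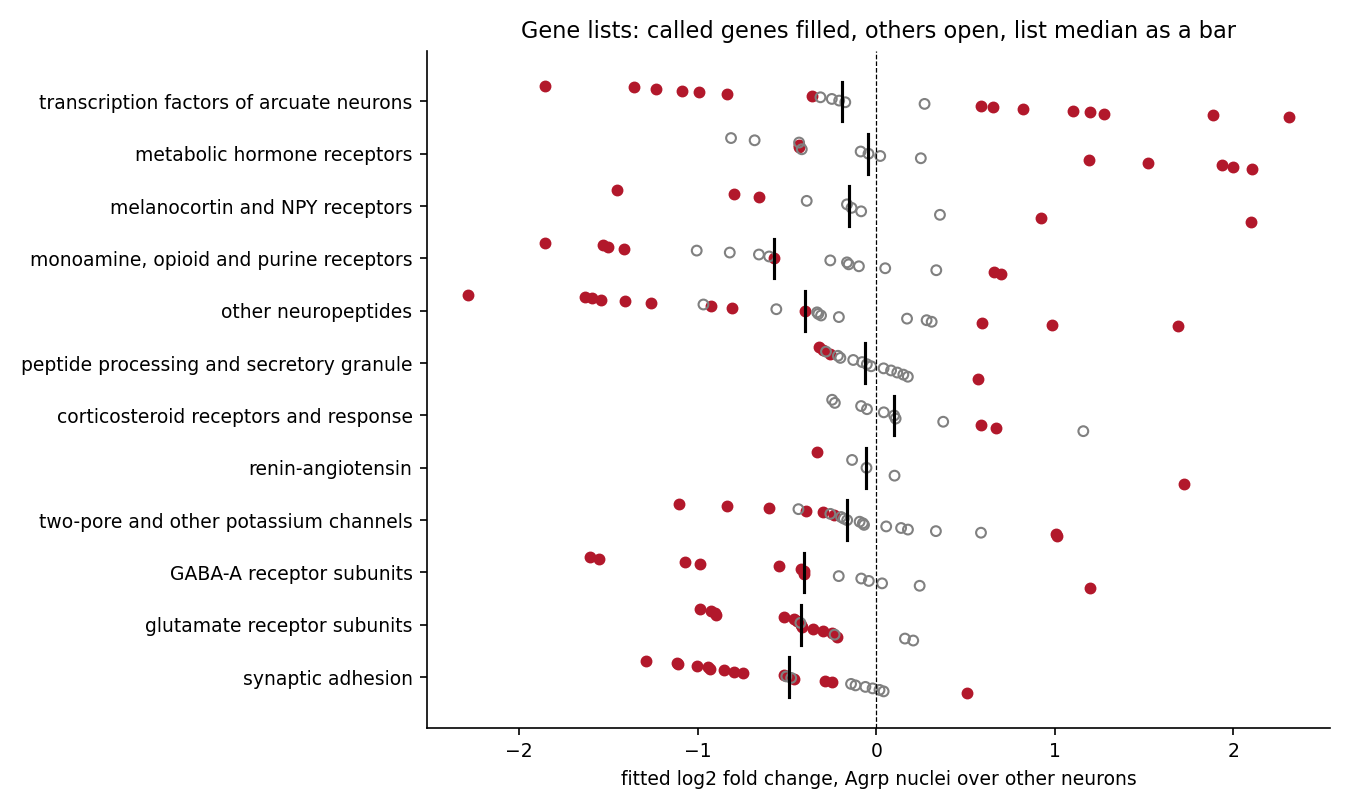
Fitted log2 fold change of members over other neurons (x axis) for the tested genes of 12 lists (y axis). Filled points passed the test, open points did not, and the bar is the list median, which is -0.42 for glutamate receptor subunits and 0.10 for steroid receptors and their targets.

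Kcnk2 and Kcnk9 make leak potassium channels, which hold the resting potential. Kcnk2 was at 229, 302 and 242 CPM in members against 124, 118 and 120 (1.00 ± 0.08, adjusted p = 5.33e-15), and Kcnk9 was at 256, 226 and 258 CPM against 97.3, 142 and 147 (1.01 ± 0.09, adjusted p = 2.63e-13). They were the 2 higher genes of 21 potassium channel genes, of which 6 were lower (median -0.16). Of 16 genes for peptide processing and secretory granules (median -0.07), 1 was higher, Pcsk1n, an inhibitor of a prohormone convertase, at 3493, 3130 and 2367 CPM against 2120, 1853 and 1880 (0.57 ± 0.06), and 3 were lower. Of 14 activity genes 0 were higher and 2 lower (median -0.30), with Egr1, an early gene induced by neuronal activity, at -1.22 ± 0.17 (-0.79 without DOCA-salt 1).

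Of 21 other neuropeptide genes, 9 were lower and 3 higher (median -0.40). Penk, the enkephalin precursor, was at 51.9, 73.5 and 26.4 CPM against 190, 101 and 60.3 (-1.54 ± 0.13, and -0.92 without DOCA-salt 1). Tac1, the substance P precursor, was at 149, 81.3 and 44.8 CPM against 501, 217 and 95.5 (-1.59 ± 0.10). Sst was higher, at 558, 512 and 575 CPM against 334, 185 and 287 (0.98 ± 0.08, adjusted p = 2.49e-14). In Sham 1, 81 of the 195 Sst UMIs of members lay in 1 nucleus, without which Sst was at 299 CPM there, and with the richest nuclei left out its fold change was 0.89. Pomc was at 356, 173 and 742 CPM against 336, 174 and 281 (0.59 ± 0.12), but 35.4%, 40.9% and 38.1% of its UMIs in members lay in 1 nucleus of each library. With the nucleus richest in each gene left out, Pomc was at 0.12 with an adjusted p of 0.389, without Sham 2 at 0.03 (adjusted p = 0.948) and without DOCA-salt 1 at 0.94, and its call was also lost with DESeq2, with thinned nuclei and against other GABA neurons. Oxt was the remaining gene called higher. However, its CPM were 12.4, 63.0 and 2560 in members against 8.07, 174 and 331, so that Sham 1 had the opposite order. In Sham 2, 2721 of the 3485 Oxt UMIs of members lay in 1 nucleus, without which Oxt was at 561 CPM there. The abundant nuclear RNAs Meg3 (-0.58 ± 0.06) and Malat1 (-0.18 ± 0.05) were lower in members and Snhg11 (0.21 ± 0.05) was higher. Snhg11 was at 0.00573 (adjusted p = 0.974) against neurons with few glial transcripts, and its call was also lost without DOCA-salt 1 (adjusted p = 0.0623) and without Sham 1 (0.114). Malat1 lost its call without DOCA-salt 1 (adjusted p = 0.13) and without its richest nuclei (-0.0944, adjusted p = 0.672), and both lost it with DESeq2.

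Markers of other cell types were present in members. The 8 oligodendrocyte genes summed to 570, 1456 and 1876 CPM in members, 613, 2729 and 2443 CPM in other neurons and 27436, 19256 and 23585 CPM in oligodendrocyte-rich nuclei. None of them was at 0 in members, while 5 of the 8 were lower in members and 0 higher (median -0.46). The 8 astrocyte genes summed to 1631, 1632 and 1944 CPM in members against 1627, 2487 and 2238, with Slc1a2 highest and 4 lower (median -0.24). The 8 microglia genes summed to 165, 163 and 224 CPM against 113, 165 and 154, and 2 of them, C1qc and C1qa, were higher in members (median 0.44). The 6 endothelial genes summed to 31.8, 23.6 and 108 CPM against 55.7, 144 and 87.9, led by Flt1, with Pecam1 and Abcb1a at 0 in Sham 1 and 1 gene, Cldn5, lower (median -0.44). Tanycyte and ependymal genes summed to 146, 49.9 and 82.3 CPM against 218, 66.1 and 94.1, with Tmem212 at 0 in all 3 and 1 gene, Crym, lower of 6 tested (median -0.26). The 6 genes of oligodendrocyte precursors summed to 116, 152 and 104 CPM against 109, 163 and 166, led by Olig1, and 0 of 6 passed the test in either direction (median -0.28). Of 3 Pomc neuron genes, Pomc was the 1 that was higher (median 0.27). The part of these transcripts in the differences above was not tested, except through the neurons with few glial transcripts, against which 1415 of the 1634 genes kept their call and sign, 21 were called in the opposite direction and the others were not called.

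The effect of DOCA-salt within members could be set out for 1 DOCA-salt library against 2 Sham libraries, with the lone library assumed to vary like the Sham ones. Of 11615 genes tested, 77 (0.663%) differed, 19 (0.164%) higher and 58 (0.499%) lower in DOCA-salt 1. The 10 with the smallest adjusted p included secreted peptides, a haemoglobin, non-coding RNAs and a mitochondrial gene. DESeq2 called 9 of the 77, and with the nucleus richest in each gene left out edgeR called 0 (428 genes at an unadjusted p under 0.05, against 837), although 76 of the 77 kept their direction. Leaving out the richest nucleus took away a different nucleus for each gene, from 33 members in Sham 1 but 449 in DOCA-salt 1. Without it Bc1 stayed at 168 CPM in DOCA-salt 1 against 1511 and 2810 in Sham 1 and Sham 2, and Gm42418 at 2459 against 7540 and 7505. The loss of all calls therefore does not show that each rested on single nuclei. Since 1 library stands for the treatment, treatment and library cannot be told apart.

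Bc1, a brain cytoplasmic RNA of neurons, was at 172 CPM in members of DOCA-salt 1 against 1624 and 2901 CPM in Sham 1 and Sham 2, a log2 fold change of -3.79 ± 0.19 (adjusted p = 5.39e-82). In oligodendrocyte-rich nuclei of the same libraries Bc1 was at 224, 2217 and 4214 CPM, and in other neurons at 208, 2232 and 3057. Nts, the neurotensin precursor, was at 5.85 CPM against 147 and 44.1 in members (-3.78 ± 0.38) and at 12.6, 124 and 74.1 CPM in oligodendrocyte-rich nuclei. Gm42418 (2514 against 8199 and 7881 CPM, -1.74 ± 0.11) and mt-Atp8 (112 against 254 and 366 CPM, -1.58 ± 0.22), a mitochondrial transcript, were also lowest in DOCA-salt 1 among oligodendrocyte-rich nuclei, at 5492, 11474 and 12498 CPM and at 205, 373 and 645 CPM. S100b, a calcium-binding protein of glia, was at 40.2 against 136 and 112 CPM (-1.65 ± 0.26), and Meg3, a nuclear RNA of neurons, at 7110 against 9742 and 8500 CPM (-0.42 ± 0.10, adjusted p = 0.00378). The call of Meg3 was lost without the filter of low counts (adjusted p = 0.318), at 3 Agrp UMIs (0.0811) and with thinned nuclei (0.25). The part of free RNA in these values was not tested.

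Oxt, the oxytocin precursor, was at 12.4 CPM against 63.0 and 2560 CPM (-6.83 ± 0.27), and Avp, the vasopressin precursor, at 1.46 against 102 and 262 CPM (-7.09 ± 0.42). In Sham 2, 2721 of the 3485 Oxt UMIs of members and 284 of the 357 Avp UMIs lay in 1 nucleus. The 8 oligodendrocyte genes gave 7 tested and 5 lower, with a median of -1.69 against 0.00 for all genes. Of all genes tested between treatments 0.164% were higher and 0.499% lower. Of the tanycyte and ependymal genes 5 were tested, all with positive values (median 1.19), and 1 of them, Crym, was higher. The 6 endothelial genes had negative values (median -1.45) and 7 of the 8 microglia genes did (median -0.52), with 0 called in either list. The part of these cell types in the differences between treatments was not tested. Mbp, a myelin protein, was at 184 against 491 and 512 CPM (-1.51 ± 0.21). Hbb-bs, a haemoglobin chain of red blood cells, was at 21.6 against 44.6 and 162 CPM (-2.55 ± 0.29), and Trh, the thyrotropin-releasing hormone precursor, at 13.5 against 49.9 and 60.2 CPM (-2.13 ± 0.34). Without the highest doublet scores Trh was at -1.42 (adjusted p = 0.145), and 32 of its 82 UMIs in Sham 2 lay in 1 nucleus. Without Sham 2 Hbb-bs was at -1.10 and Oxt at -2.39, with no test possible.

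Of 17 other neuropeptide genes tested between treatments, 3 were higher and 4 lower in DOCA-salt 1 (median -0.11). Over all genes tested the shares were 0.164% and 0.499%. Ghrh, the growth hormone-releasing hormone precursor, was at 125 CPM against 47.2 and 36.0 CPM in members (1.61 ± 0.27, adjusted p = 1.09e-06), with 343 UMIs in 34 nuclei of DOCA-salt 1, of which 110 lay in 1 nucleus. Tac1 was at 149 against 81.3 and 44.8 CPM (1.35 ± 0.25) and, in the other neurons, at 501 against 217 and 95.5. Pmch was at 29.3 against 13.1 and 4.41 CPM (2.08 ± 0.51, adjusted p = 0.0116), with 80 UMIs in 15 nuclei, and its call was lost at 10 Agrp UMIs (1.67, adjusted p = 0.481) and at 3 (1.69, adjusted p = 0.0622). With nuclei thinned to 2000 UMIs Ghrh (1.29, adjusted p = 0.465) and Tac1 (1.08, adjusted p = 0.381) lost theirs. Without Sham 2, which leaves no test, Tac1 was at 0.81 and Pmch at 1.09. The non-coding Gm47283 was at 1412 against 268 and 777 CPM (1.31 ± 0.17) and, in oligodendrocyte-rich nuclei, at 739 against 154 and 263. Its fold change was 0.80 without Sham 1 and 2.34 without Sham 2.

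**Figure D4:**
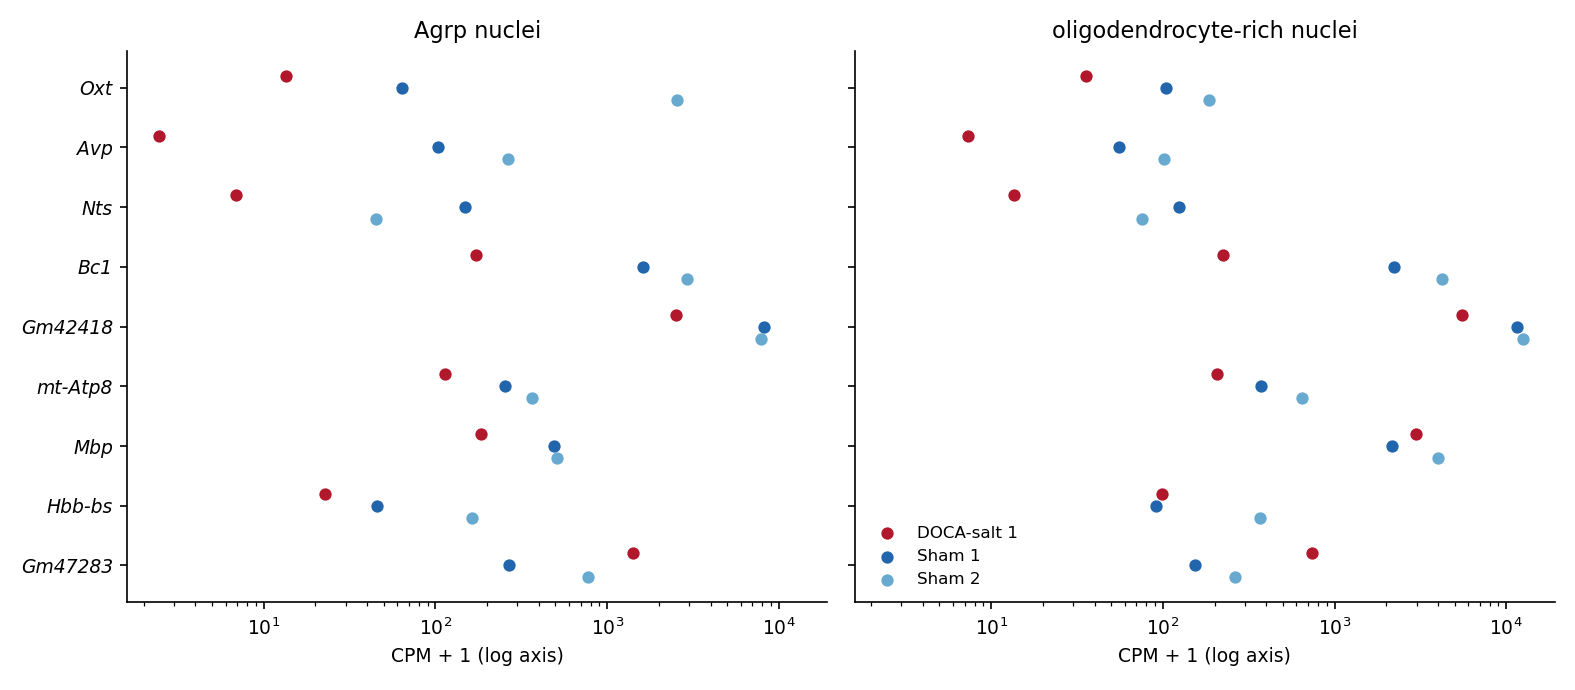
CPM + 1 (x axis, log) of 9 of the 10 genes with the smallest adjusted p between treatments (y axis), in members (left) and in oligodendrocyte-rich nuclei (right), with 1 point per library. Bc1, Nts, Gm42418 and mt-Atp8 have DOCA-salt 1 lowest in both panels.

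The markers Otp, Acvr1c and Corin and several other genes described above did not pass the test between treatments. Agrp and Npy, which chose the members, were left out of its counts. Otp (0.11 ± 0.20), Acvr1c (0.31 ± 0.21), Corin (0.17 ± 0.32), Lepr (-0.38 ± 0.33), Npy2r (-0.22 ± 0.23), Nr3c1 (-0.41 ± 0.21) and Sst (-0.03 ± 0.19) had adjusted p between 0.712 for Nr3c1 and 0.995 for Sst. Agtr1a gave 1.67 ± 0.67 (adjusted p = 0.421 in edgeR) and Fkbp5 0.63 ± 0.27 (adjusted p = 0.478). None of the tested genes of the receptor, transcription factor, potassium channel, synaptic or steroid lists passed, and these tests had 1 library on one side, so they do not show that the genes were alike.

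Whether members changed in another way than the other neurons of the same libraries was tested as an interaction. Of 15713 genes, 26 (0.165%) passed, 11 (0.07%) higher and 15 (0.0955%) lower, and DESeq2 called 0 (49 genes at an unadjusted p under 0.05, against 593 with edgeR). Bc1 did not pass (-0.01 ± 0.14). For several genes that passed, DOCA-salt 1 lay further from the Sham libraries in other neurons than in members. Gnal, a G protein subunit of striatal neurons, was at 149, 199 and 137 CPM in members and at 210, 111 and 106 CPM in other neurons (-1.03 ± 0.17, adjusted p = 1.08e-05). Rgs9, also a striatal gene, was at 228, 131 and 161 CPM in members and 218, 65.6 and 85.8 CPM in other neurons (-0.86 ± 0.16), with DOCA-salt 1 highest in both. Foxp1 was at 92.6, 105 and 107 CPM in members and 140, 84.1 and 79.5 CPM in other neurons (-0.98 ± 0.19). Kcnk9 was at 256, 226 and 258 CPM in members and at 97.3, 142 and 147 CPM in other neurons (0.64 ± 0.16, adjusted p = 0.0289), and with members of at least 10 Agrp UMIs the call was lost (0.54, adjusted p = 0.407). How much the mix of other neurons in each library took part was not tested.

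Some members carried Sst, the somatostatin precursor, which the study uses to tell Agrp subtypes apart. At least 5 Sst UMIs were found in 81 of 449 members of DOCA-salt 1 (18.0%), in 7 of the 33 from Sham 1 (21.2%) and in 42 of the 156 from Sham 2 (26.9%), against 6.43%, 5.43% and 5.77% of other neurons, while 47.4%, 27.3% and 24.4% of members had no Sst UMI. The limit of 5 UMIs cuts a range of values, with median Sst at 1, 2 and 2 UMIs and the highest values at 85, 81 and 53. Whether Sst sets apart a type of nucleus was not tested. Sst-high members were deeper than the rest, with medians of 6968 against 3933.5 UMIs, 16018 against 9333.5 and 11019 against 6227.5. Sst itself, Agrp and Npy were left out of the counts of the test between them, which took the library as a block.

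Of 9627 genes, 22 (0.229%) differed between Sst-high and other members, 7 (0.0727%) higher and 15 (0.156%) lower (690 at an unadjusted p under 0.05), while DESeq2 called 2 of them. Serpina3n was lower in Sst-high nuclei, at 128, 107 and 101 CPM against 355, 253 and 267 (-1.43 ± 0.13, adjusted p = 4.04e-12). Acvr1c was at 93.6, 143 and 109 CPM against 299, 189 and 240 (-1.35 ± 0.14, adjusted p = 9.40e-10), and a UMI of it was seen in 41 of the 81, 4 of the 7 and 23 of the 42 Sst-high nuclei. Both were lower in Sst-high nuclei of every library. How many of all genes tested had 1 sign in every library was not counted here. Of the 3 markers Otp, Acvr1c and Corin, 0 had a positive value (median -0.80) and 1, Acvr1c, was lower. Agrp itself made up 0.172%, 0.134% and 0.0996% of UMIs in Sst-high members against 0.216%, 0.146% and 0.158% in the rest. The part of this lower Agrp share, and of the greater depth, in the differences was not tested. The values of Serpina3n and Acvr1c remained above those of other neurons in each library.

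Arhgap36 (93.6, 116 and 122 CPM against 175, 201 and 222, -0.88 ± 0.13) and Prune2 (227, 286 and 331 against 443, 379 and 459, -0.70 ± 0.11) were lower too. Irs4 was at 306, 339 and 327 CPM against 431, 442 and 492 (-0.52 ± 0.10), Rgs2, a brake on G protein signalling, at 152, 259 and 226 against 268, 282 and 322 (-0.61 ± 0.12), and Kcnk9 at 199, 197 and 197 against 278, 238 and 291 (-0.49 ± 0.11, adjusted p = 0.0332). Prune2, Irs4, Rgs2 and Kcnk9 lost their calls without DOCA-salt 1, with adjusted p of 0.414, 0.162, 0.708 and 0.537. Without Sham 2, Irs4 (0.319), Rgs2 (0.0823) and Kcnk9 (0.714) also lost them. Kcnk9 lost its call without the highest doublet scores (adjusted p = 0.0942) and Rgs2 at 10 Sst UMIs (0.166). Gpr101, an orphan receptor, was higher, at 228 and 182 CPM against 93.7 and 67.9 in DOCA-salt 1 and Sham 2, but at 35.7 against 63.2 in Sham 1 (1.24 ± 0.15).

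The calls of Oxt and Avp rested on single nuclei, and that of Pomc on Sham 2. Oxt was at 35.6, 53.6 and 5795 CPM in Sst-high members against 3.54, 66.9 and 815 in the rest (2.72 ± 0.16), and without the richest nucleus of each gene it turned to -1.77. Avp was at 0, 8.93 and 635 CPM against 2.03, 141 and 61.1 (2.46 ± 0.30), and turned to -0.75 in the same way. Pomc was at 326, 71.5 and 109 CPM against 368, 215 and 1084 (-1.39 ± 0.22), and without Sham 2 it was -0.34 with an adjusted p of 0.953, and without DOCA-salt 1 it was -3.11. The study names Lrp1b beside Sst for a subcluster with modest Agrp, set against its other Agrp subclusters. Here members needed at least 5 Agrp UMIs and were split by Sst UMIs, so the nuclei compared differ from those of the study. In this split Lrp1b did not pass the test, at 156, 134 and 101 CPM in Sst-high members against 122, 63.2 and 86.0 (0.38 ± 0.15, adjusted p = 0.517 in edgeR).

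**Figure D5:**
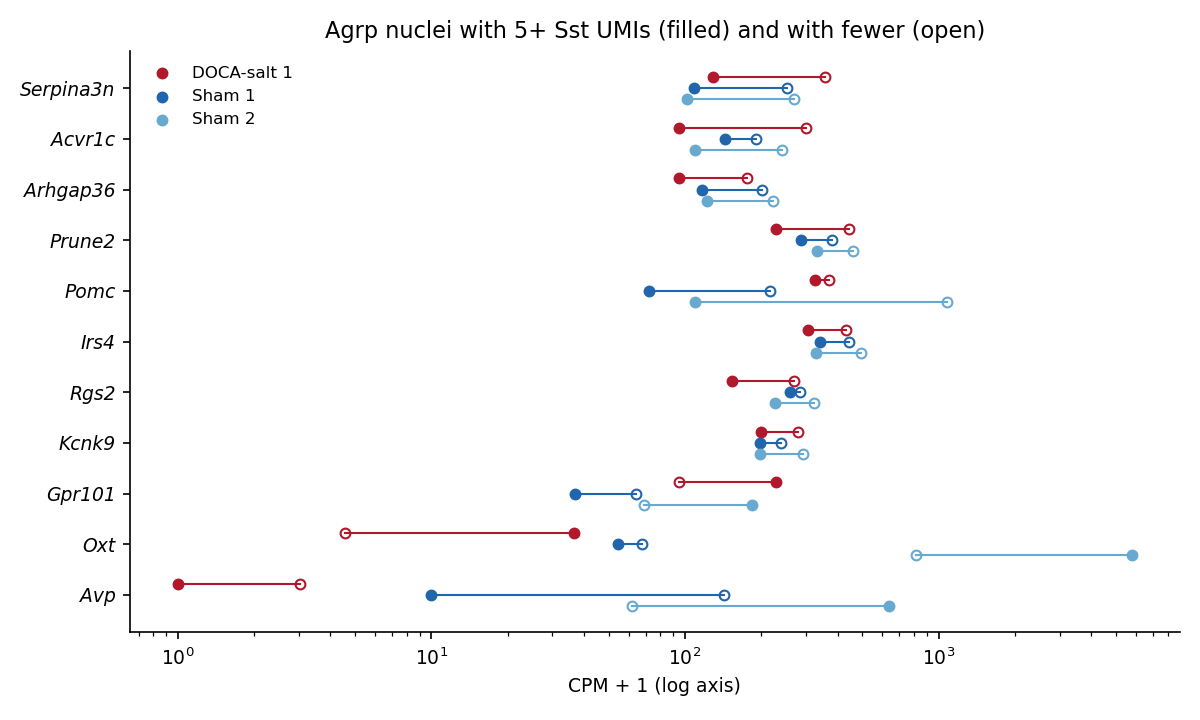
CPM + 1 (x axis, log) in members with at least 5 Sst UMIs (filled) and with fewer (open), joined within each library, for 11 genes (y axis). Serpina3n, Acvr1c, Arhgap36, Prune2, Irs4 and Kcnk9 have the filled point to the left in all 3 libraries, whereas Gpr101, Oxt and Avp differ in direction between libraries.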

How the data were processed

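The deposited values were whole UMI counts per gene and barcode, which the authors made with Cell Ranger 3.0.1 on GRCm38 (mm10), per the submitters' processing notes and the study's methods. The files held 41649 barcodes, and the counts were not normalized. Kept were barcodes above 200 and below 7000 genes, below 25000 UMIs and below 15% mitochondrial UMIs, the limits of the study. Total UMIs of the libraries were 53257230 (Sham 1), 59293582 (Sham 2), 45126915 (DOCA-salt 1) and 79437196 (DOCA-salt 2). Intervals and floors (3 counts) cover counting error only. The library is a pool of 2 mice, so pools, not mice or nuclei, were the unit of the tests. With few sums per test, edgeR took the spread of a gene partly from other genes. Very small p-values and SE rest on that sharing and do not measure the spread of that gene between pools alone. Between treatments, DOCA-salt gave 1 library and so no spread of its own. Against other neurons, the library block took out what differed between whole pools.

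UMIs were summed over members and over other neurons in each library with at least 10 members and tested with edgeR 4.0.16 (TMM, filterByExpr, quasi-likelihood test, Benjamini-Hochberg over all genes tested) in R 4.3.3. DESeq2 1.42.0 was an alternative. SE is the log2 fold change over the root of F. CPM are UMIs per 1000000 of the sum. The MAST test of the study treats nuclei as replicates and was not used. Python 3.11.15 and scanpy 1.11.5 gave doublet scores by Scrublet. Its own threshold marked 0, 0, 4 and 0 nuclei, so the highest scores at 0.8% per 1000 nuclei were taken (80 members) and left out in an alternative. Of these members 67 were in DOCA-salt 1, which is 14.9% of its members against 8.25% of its kept nuclei. Sham 2 had 13 (8.33% against 6.21%), and DOCA-salt 2 and Sham 1 had 0. The fixed gate for oligodendrocytes (Mog plus Mag at least 2 UMIs, Snap25 plus Syt1 at 0) left 67, 257, 2 and 106 nuclei, so at least 1% of UMIs from 8 oligodendrocyte genes was used, a limit set after seeing this, which gave 217, 1039, 123 and 629 nuclei. Nuclei were thinned to 2000 UMIs, which left out members under that depth (381, 1, 33 and 152 stayed). Scripts were tested on simulated data.

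The members, the gene lists and the tests were chosen with earlier results of these data known. Named genes are those of the lists, the 15 highest and 10 lowest against other neurons by the rule in the text, the 10 with the smallest adjusted p in the other comparisons, and genes that the study names for Agrp subtypes. Insr, Nr3c2, Hsd11b2, the transmitter genes and Agt, Kcnk9 and Oxt between the treatments were picked from the lists after their values were seen. Alternatives were size factors of another kind (RLE), no filter of low counts, limits of 3 and 10 Agrp and 10 Sst UMIs, other comparison neurons, no library block and leaving out each library in turn. Neurons with few glial transcripts (Snap25 plus Syt1 at least 0.1% and glial and vascular genes under 0.5% of UMIs), thinning of the tested sums, crossed pool numbers and leaving out the richest nucleus of each gene were added after seeing the data. Kiss1 has 2 gene IDs in the files and was not tested. Some genes that the rule names are not reported here.

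Sham and DOCA-salt pools share the numbers 1 and 2. Deviations from the group means over 16303 genes in other neurons correlated at -0.23 for number 1. With 2 libraries per treatment the value for number 2 must be the same, so it adds nothing. The numbers were not taken as a pairing.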

Additional observations from a re-analysis of the deposited data

Results flagged for a closer look

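These genes were singled out because the difference between DOCA-salt 1 and the Sham libraries was not the same in members and in other neurons, by the interaction term in edgeR. Values are the log2 difference in members relative to that in other neurons. Lower were Avp (-2.78), Col6a1 (-2.11), Oxt (-1.20), Rasgrp1 (-1.11), Gnal (-1.03), Foxp1 (-0.98), Pomc (-0.87) and Rgs9 (-0.86). Higher were Pmch (2.36), Ghrh (1.19), Itih3 (0.94), Agt (0.72) and Kcnk9 (0.64). Rasgrp1 was at 133, 163 and 151 CPM in members of DOCA-salt 1, Sham 1 and Sham 2 and at 100, 34.9 and 64.7 CPM in other neurons. Itih3 was at 170, 121 and 153 CPM in members and at 150, 237 and 242 CPM in other neurons, and Col6a1 at 32.6, 28.9 and 12.5 against 44.4, 4.04 and 5.77. Agt was at 159, 131 and 134 CPM in members and 153, 212 and 208 CPM in other neurons, and its value was 0.23 (adjusted p = 1 in edgeR) against neurons with few glial transcripts. Without the highest doublet scores Avp was at -0.70 (adjusted p = 1 in edgeR). Without the richest nucleus of each gene Avp was at -1.33 and Oxt at -1.09 (adjusted p = 1 for both), Pmch was at 3.92 (4.20 against neurons with few glial transcripts), and Col6a1 had an adjusted p of 0.0526. With members of at least 10 Agrp UMIs the calls of Pomc (-0.49, adjusted p = 0.761 in edgeR), Oxt (0.156), Col6a1 (0.146), Pmch (0.127) and Kcnk9 (0.407) were lost, and at 3 Agrp UMIs Oxt was at -0.32 (adjusted p = 1 in edgeR). Without Sham 2, with no test possible, Pomc turned to 0.13 and Oxt to 2.13, Ghrh was at 0.25, Rasgrp1 at -1.77 and Col6a1 at -3.24. Itih3 was at 0.61 (adjusted p = 0.0672 in edgeR) against neurons with few glial transcripts, and Agt lost its call without the highest doublet scores (adjusted p = 0.102 in edgeR). DESeq2 called 0 of these genes.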

How the results depend on the processing

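For members against other neurons, 1634 genes became 573 with DESeq2, 717 with nuclei thinned to 2000 UMIs, 200 without the library block, and between 732 (without DOCA-salt 1) and 1755 (without Sham 1) with a library left out. Of 68 genes with a printed fold change, 64 kept their direction in every alternative run, and Agt turned to 0.43 against neurons with few glial transcripts. The other changes of sign were in genes that did not pass the test: Gad1 at -0.18 against GABA neurons, Nr3c2 at -0.13 with thinned nuclei, and Insr at 0.0166 without the block and between -0.18 and 0.0936 with a library left out. Between treatments within members, 77 became 9 with DESeq2, 51 at 10 Agrp UMIs, 25 with thinned nuclei and 0 without the richest nucleus of each gene, and 21 of 24 printed genes kept their direction. The exceptions did not pass the test: Corin at -0.0911 with 10 Agrp UMIs, Otp at -0.0625 to 0.399 with a Sham library left out, and Sst at 0.18 without the highest doublet scores, 0.0153 and 0.00628 at 10 and 3 Agrp UMIs, 0.21 with thinned nuclei, 0.12 without its richest nucleus and -0.11 to 0.0642 with a Sham library left out. Relative to other neurons, 26 became 0 with DESeq2, 12 at 10 Agrp UMIs and 43 against GABA neurons. With a Sham library left out no test was possible there, and Oxt ranged from -2.32 (without Sham 1) to 2.13 (without Sham 2) and Pomc from -1.31 to 0.13, while Bc1, which did not pass, ranged from -0.198 to 0.223 and was at 0.159, 0.0165 and 0.0413 with 10 or 3 Agrp UMIs and against GABA neurons. For Sst-high members, 22 became 40 without the filter, 2 with DESeq2, 38 without the richest nucleus of each gene, 2 without the library block, and between 12 (without Sham 2) and 58 (without Sham 1) with a library left out. There Oxt turned to -3.13 and Avp to -1.78 without the highest doublet scores, Oxt to -1.77 and Avp to -0.75 without the richest nucleus, Oxt to -3.50 at 10 Sst UMIs and Avp to -1.68 with DESeq2. The cause of these changes was not tested. The share of members differed by -2.06 to 3.91 percentage points with a library left out.

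With the replicate number as a block the share differed by 0.925 points (p = 1, exact permutation test), as it did with crossed numbers (0.925). The mean difference is the same whichever way the numbers are paired, so it does not tell the pairings apart. No paired analysis was possible within members because only 1 DOCA-salt library had enough of them. Depth limits rare genes: 3 UMIs in members are 7.87 CPM in Sham 1, 2.20 in Sham 2 and 1.10 in DOCA-salt 1.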
